A study of Homo sapiens with 60 samples.

Results

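RNA-seq counts were compared between HT29 cells given a high and a low dose of Banhasasim-tang, a mixture of herbs extracted together in hot water. HT29 is an established human colorectal adenocarcinoma line. Cells were collected after 24 h with 500 µg/mL (high dose) or 20 µg/mL (low dose). The libraries were chosen by their labels alone, 3 high and 3 low, 6 of the 60 samples of the series. The 3 libraries of the medium dose (100 µg/mL) and the high and low doses of Yijung-tang, another formula at 500 and 20 µg/mL for 24 h in 3 libraries each, served for comparison. Both formulas carry the same set number in their sample names, set 7. The main fit took its spread from 57 libraries in 19 groups. Also in it were Yijung-tang at 100 µg/mL and water extracts of citrus peel, cimicifuga, bupleurum and processed aconite at 20, 100 and 500 µg/mL. These single-herb extracts carry other set numbers and were also given for 24 h. Vehicle libraries (0.1% DMSO in the sample labels and 2% in the series' design text) carry another set number. They were a group of the main fit and are otherwise given only as levels. The series asks how herbal extracts change the transcriptome of digestive tract cells, and this comparison asks what a higher dose adds to a lower one of the same formula. The labels do not state whether replicates came from separate cultures. The p-values therefore cover no more than the spread among the libraries of each fit, and that spread may be technical. Banhasasim-tang high spread more than its low dose, so p-values from the shared spread of the main fit can understate it.

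Banhasasim-tang, known in Chinese as Banxia Xiexin Tang, is a traditional formula for complaints of the stomach and gut that combines pinellia, scutellaria and coptis with ginger, ginseng and licorice. Plant phenolics and other electrophiles are known to modify KEAP1, the adaptor that marks the transcription factor NRF2 for breakdown, and NRF2 then binds antioxidant response elements in the promoters of detoxification genes. Among these are the aldo-keto reductases, which reduce carbonyls of lipids, sugars and steroids with NADPH, the aldehyde dehydrogenase ALDH3A1, the quinone reductase NQO1 and the enzymes that make glutathione. Flavonoids and indoles are also known ligands of the aryl hydrocarbon receptor, whose classical targets are CYP1A1 and CYP1B1.

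One library stood apart before any comparison. Total counts were 15.37, 16.18 and 18.71 M in high 1, 2 and 3, against 16.57, 10.35 and 13.95 M in low 1, 2 and 3. High 2 deviated from its group mean by 0.329 (root mean square over genes, log2 scale), high 1 by 0.172 and high 3 by 0.219, against 0.121 to 0.146 in the low libraries. Compared gene by gene, pairs of replicates gave a chi-square per degree of freedom of 45.5 for high 1 with high 2, 58.3 for high 2 with high 3 and 5.72 for high 1 with high 3, against 2.86 to 3.74 between low libraries. In high 2 the deviation fell with exon length across 13178 genes (rank correlation -0.56), with ribosomal protein mRNAs above the group mean by a median of 0.40 and the longest transcripts at -0.85. Results are therefore given with and without high 2, and the main count also with an offset for exon length. Of 13 colorectal epithelial markers none was at 0, with summed levels of 11100 to 13800 CPM (counts per M of total counts) in high and 10900 to 12000 CPM in low libraries. COL1A2, DCN and PDGFRA of fibroblasts, CDH5 and KDR of endothelium, and CD3D, CD3E, HBB and MS4A1 of blood cells were at 0 in both groups. Summed levels were 1.69 to 2.47 CPM in high and 2.05 to 2.41 CPM in low libraries for 8 fibroblast markers, and 1.55 to 3.53 CPM in high and 2.23 to 2.80 CPM in low libraries for 5 endothelial markers. The 10 blood cell markers summed to 1760 to 2210 CPM in high and 1610 to 1790 CPM in low libraries, nearly all of it LYZ, the lysozyme that gut epithelium also makes (1740, 2242 and 1704 TMM-scaled CPM in high, against 1711, 1542 and 1721 in low libraries).

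The higher dose went with small changes in few genes. With all libraries, 38 of 16484 tested genes differed between high and low dose (0.231%), 15 of them higher (0.091%) and 23 lower (0.14%) at the high dose (edgeR's quasi-likelihood test, p-values adjusted by Benjamini-Hochberg, threshold 0.05). At an unadjusted p under 0.05 the count was 3389 (20.6%). Absolute log2 fold changes of the 38 ran between 0.24 and 1.09, and 1 gene passed 1. The rises included 5 detoxification enzymes: the aldo-keto reductases AKR1C2, AKR1C3, AKR1C1 and AKR1B10 and the aldehyde dehydrogenase ALDH3A1. Without high 2, no gene passed: edgeR called 0 of 16729 genes, 670 had an unadjusted p under 0.05 (4.01%), and the smallest adjusted p was 0.159. High 2 was the most extreme of the 3 high libraries in 36 of the 38 genes. All 38 kept their sign without it, in 36 the change was smaller, and the median ratio of the log2 fold change without high 2 to that with it was 0.771. The choice of the 38 by a test that included high 2 favours such values, and shares over all tested genes were not computed. The libraries of both groups did not overlap in 36 of the 38 genes, with or without high 2, a count that their choice by the same test largely fixes; over all tested genes, 7.19% had every high library above and 6.43% below the low ones (11% and 9.82% without high 2). The count also moved with other single libraries: it was 831 without high 1, 2990 without high 3, and 11, 1 and 12 without low 1, 2 and 3. The fit shared its spread over 57 libraries, and with the 6 compared libraries alone edgeR called 0 genes, with 461 at an unadjusted p under 0.05.

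**Figure D1:**
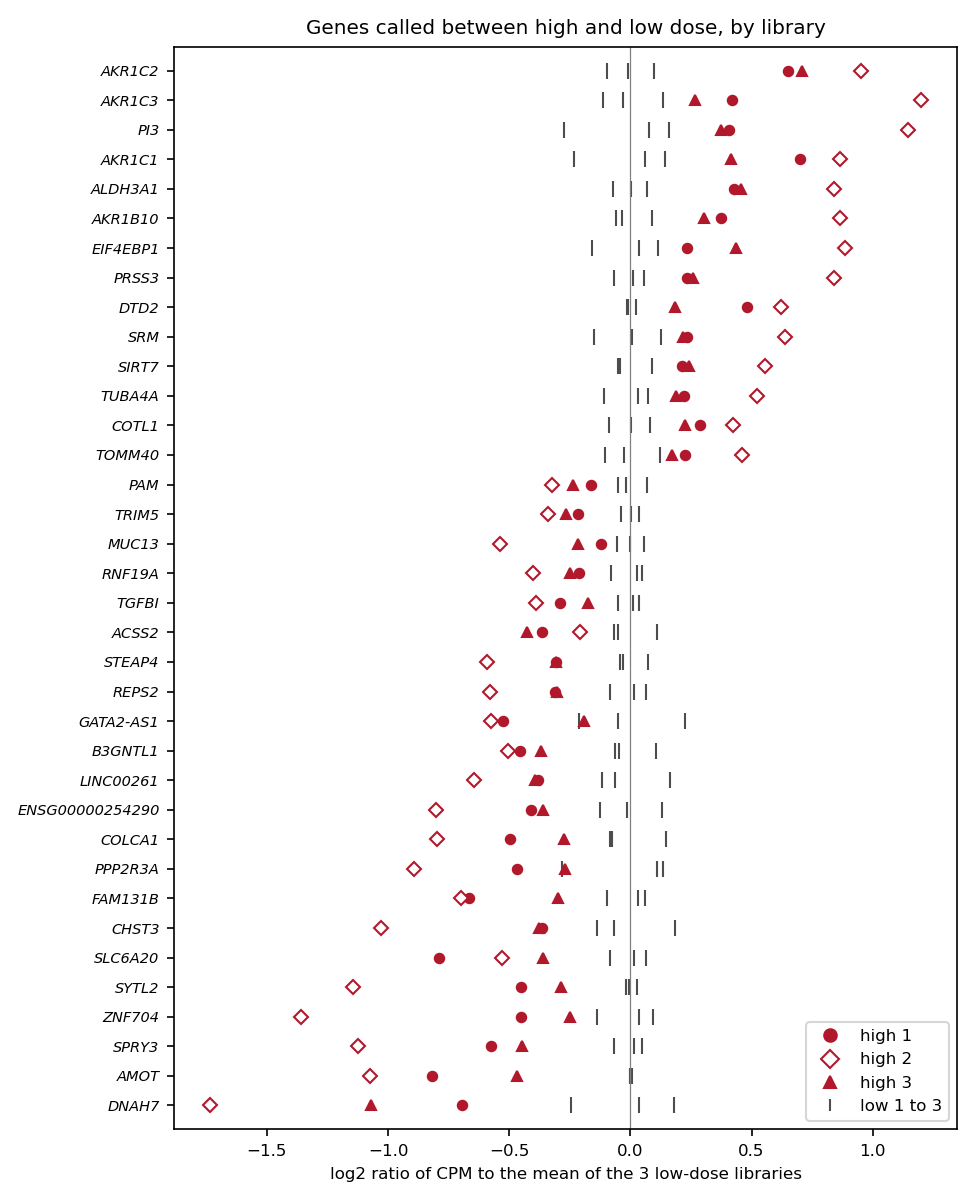
The plot shows 36 of the 38 genes called with all libraries (rows, largest rise at the top), each high library as a red symbol and the low libraries as grey ticks; the horizontal axis is the log2 ratio of CPM to the mean of the 3 low libraries. High 2 (open diamonds) lies farthest from the low libraries in 34 of the 36, and ACSS2 and SLC6A20 are the genes where it does not. In high 1 and high 3, AKR1C2 and ALDH3A1 stay clear of the low libraries, as do most of the genes drawn.

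A fit limited to the 18 libraries of set 7, without high 2, called 3 of 15313 genes (0.0196%): AKR1C2 and ALDH3A1 were higher and BCAS1, a gene amplified in breast cancers, was lower at the high dose, and 890 genes (5.81%) had an unadjusted p under 0.05. BCAS1 had 56.99, 63.45 and 59.8 CPM in high and 71.7, 72.5 and 71.3 CPM in low libraries, with a log2 fold change of -0.30 in that fit (edgeR adjusted p = 0.0374) and -0.26 ± 0.06 with all libraries (edgeR adjusted p = 0.0516). The same fit with an offset for exon length called AKR1C2, ALDH3A1 and AKR1B10. Both fits were chosen after seeing the data. A limma fit of set 7 with a weight for each library, which gave high 2 a weight of 0.07, called 14 of 15060 genes (0.093%), 6 higher and 8 lower, of which 10 were among the 38. The genes named in the rest of this account are from those 38, picked after their values were seen because no gene passed both with and without high 2, and members of gene lists. TUBB is an exception, named because it passed between the doses of Yijung-tang.

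Of the 4 aldo-keto reductases, 3 lie in a cluster on chromosome 10. AKR1C1 (chr10:4963253-4983283, plus strand), AKR1C2 (chr10:4987400-5018031, minus strand) and AKR1C3 (chr10:5035354-5107686, plus strand) are neighbours, whereas AKR1B10 lies at chr7:134527592-134541408 (plus strand, GRCh38, GENCODE 29). AKR1C1 inactivates progesterone, AKR1C2 the androgen dihydrotestosterone, AKR1C3 makes testosterone and prostaglandin F, and AKR1B10 reduces retinal and reactive aldehydes. ALDH3A1 (chr17:19737984-19748943, minus strand) oxidises aldehydes from lipid peroxidation.

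AKR1C1 and AKR1C2 are close copies, and the windows around their starts show it. The sequences span 250 bases before and 50 bases after the gene start in RefSeq (GRCh38.p14), at chr10:4963165-4963464 on the plus strand for AKR1C1 and chr10:5003808-5004107 on the minus strand for AKR1C2, both written 5′ to 3′ on the gene's strand. Of 296 aligned columns 288 were identical, 4 were substituted and 4 were gaps, with a run of 239 identical bases. Capitals mark the bases that differ between the pair.
AKR1C1: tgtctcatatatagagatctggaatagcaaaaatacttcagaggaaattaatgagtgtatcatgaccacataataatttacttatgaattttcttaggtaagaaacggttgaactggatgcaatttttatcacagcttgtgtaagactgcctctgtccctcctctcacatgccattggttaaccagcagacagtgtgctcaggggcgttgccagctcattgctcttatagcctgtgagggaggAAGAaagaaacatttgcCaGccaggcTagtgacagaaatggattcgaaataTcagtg
AKR1C2: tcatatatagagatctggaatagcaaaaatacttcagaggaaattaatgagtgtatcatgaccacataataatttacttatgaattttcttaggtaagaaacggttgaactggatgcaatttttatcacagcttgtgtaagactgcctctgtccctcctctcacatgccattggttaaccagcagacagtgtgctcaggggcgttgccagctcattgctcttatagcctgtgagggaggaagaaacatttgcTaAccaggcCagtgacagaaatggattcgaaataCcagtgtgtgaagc
The AKR1C3 window matched that of AKR1C1 at 227 of 300 aligned columns, with a longest identical run of 18 bases. Transcripts are alike too: of the 3657 windows of 100 bases in the longest AKR1C2 transcript 31.1% also occurred in AKR1C1, and 17.2% of AKR1C1's 6606 windows occurred in AKR1C2. RSEM shared such reads between the genes, so the split between AKR1C1 and AKR1C2 is uncertain. AKR1C3 shared 4.22% of its windows with AKR1C2, and AKR1B10 shared none with any of the other three.

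AKR1C2 had 13.1, 16.2 and 13.7 CPM in high 1, 2 and 3, against 8.31, 7.83 and 8.96 CPM in low 1, 2 and 3. All high libraries lay above all low ones, and high 1 and high 3 were close to each other. The log2 fold change was 0.77 ± 0.14 (SE, edgeR adjusted p = 0.00476), 0.67 ± 0.15 without high 2 (edgeR adjusted p = 0.159) and 0.67 ± 0.10 in set 7 without high 2 (edgeR adjusted p = 0.0293). The medium dose stood between, with 10.6, 9.98 and 9.42 CPM. ALDH3A1 had 26.2, 34.9 and 26.8 CPM in the high libraries, against 19.5, 18.5 and 20.4 CPM in the low ones. Again every high library exceeded every low one. Its log2 fold change was 0.58 ± 0.09 (SE, edgeR adjusted p = 0.000857, the smallest of all tested genes), 0.44 ± 0.09 without high 2 (edgeR adjusted p = 0.159) and 0.43 ± 0.07 in set 7 without high 2 (edgeR adjusted p = 0.0293). The medium libraries held 21.05, 21.07 and 21.42 CPM.

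AKR1B10 had 118.1, 165.8 and 112.3 CPM in high 1, 2 and 3, against 87.4, 88.8 and 96.9 CPM in the low libraries. The groups did not overlap, and high 2 lay well above its replicates. The log2 fold change was 0.54 ± 0.09 (edgeR adjusted p = 0.00432) and 0.34 ± 0.08 without high 2 (edgeR adjusted p = 0.208). AKR1C3 had 72.6, 124.8 and 65.4 CPM in the high libraries, against 53.1, 50.1 and 59.6 CPM in the low ones. The difference rested largely on high 2, since the log2 fold change of 0.69 ± 0.15 (edgeR adjusted p = 0.0359) became 0.34 ± 0.14 without it (edgeR adjusted p = 1). AKR1C1 had 19.02, 21.3 and 15.6 CPM in high, against 12.2, 9.97 and 12.9 CPM in low libraries. Its groups did not overlap either, with a log2 fold change of 0.65 ± 0.15 (edgeR adjusted p = 0.0425) and 0.54 ± 0.16 without high 2 (edgeR adjusted p = 0.724).

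**Figure D2:**
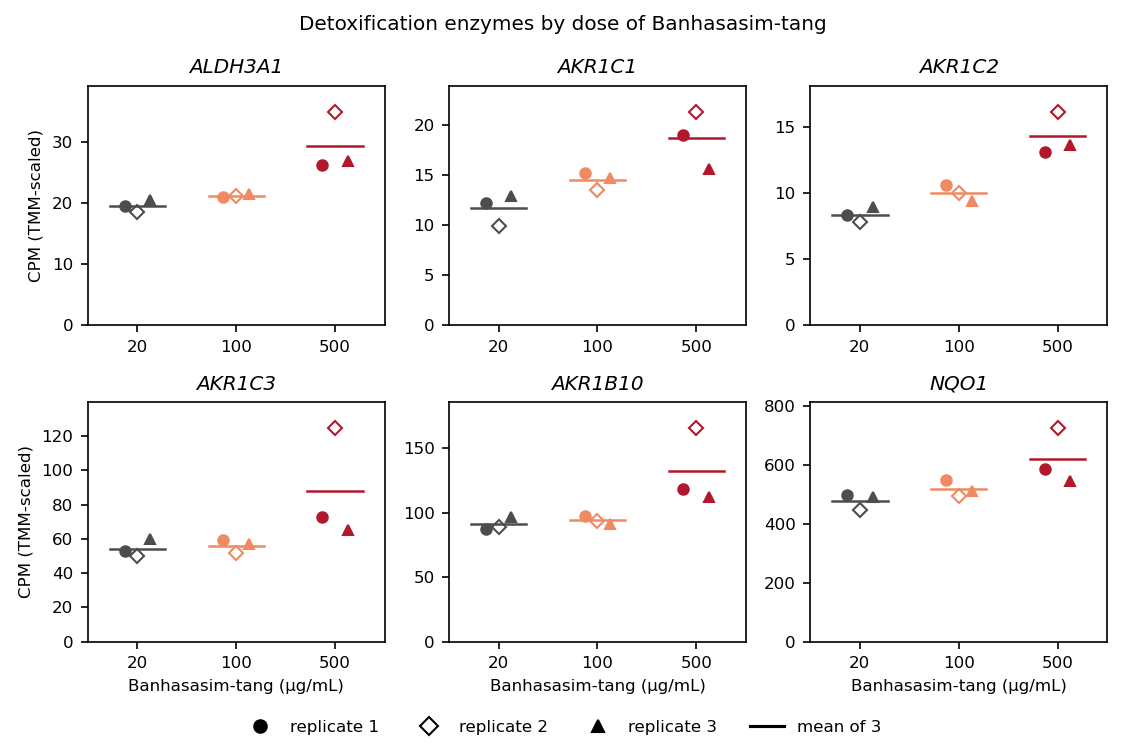
CPM in every library at 20, 100 and 500 µg/mL Banhasasim-tang for 6 detoxification genes; symbols mark replicates, open diamonds replicate 2, and lines the mean of 3. All 3 libraries at 500 µg/mL lie above all 3 at 20 µg/mL in AKR1C2, ALDH3A1, AKR1C1, AKR1B10, AKR1C3 and NQO1, and replicate 2 is the highest at 500 µg/mL in each.

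Beyond those 5, no other of the 28 tested NRF2 targets passed (5 higher, 0 lower), yet the list leaned one way. The values of the list that follow include the 5 called genes, in each of which all high libraries lay above all low ones. In 20 of 28 all high libraries lay above all low ones, against 7.19% of all tested genes, and in 22 of 28 without high 2, against 11% of all genes. The median log2 fold change was 0.27 with high 2, 0.16 without it and 0.18 with the exon length offset, and all 28 were above 0 without high 2. By library the median log2 ratio to the low mean was 0.17, 0.37 and 0.15 in high 1, 2 and 3, against 0.01, -0.01 and 0.01 in low 1, 2 and 3. Ribosomal proteins, whose mRNAs are short, had medians of 0.08, 0.68 and 0.06 in the same high libraries. NQO1, which reduces quinones, had 586.4, 725.3 and 544.8 CPM in high and 497.7, 447.0 and 488.9 CPM in low libraries. Its log2 fold change of 0.37 ± 0.09 missed the threshold (edgeR adjusted p = 0.0675), as did 0.24 ± 0.10 without high 2 (edgeR adjusted p = 1). GCLM, the modifier subunit of the enzyme that starts glutathione synthesis, had 79.4, 92.2 and 73.8 CPM in high, against 66.3, 70.0 and 63.1 CPM in low libraries. That is a log2 fold change of 0.30 ± 0.08 (edgeR adjusted p = 0.0753) and 0.21 ± 0.08 without high 2 (edgeR adjusted p = 1). The ferritin chains FTH1 and FTL, which store iron, had log2 fold changes of 0.32 ± 0.09 and 0.33 ± 0.10 with all libraries, and 0.16 ± 0.09 and 0.18 ± 0.10 without high 2. HMOX1, which breaks down heme, had 9.44, 9.94 and 9.24 CPM in high and 7.90, 8.29 and 7.30 CPM in low libraries. Its groups did not overlap, but the log2 fold change of 0.29 ± 0.11 did not pass (edgeR adjusted p = 0.151) and was 0.26 ± 0.12 without high 2. For OSGIN1, an oxidative stress response gene, the log2 fold change was 0.32 ± 0.11 with high 2 and 0.33 ± 0.12 without it. At the other end the exporter ABCC3 had -0.06 ± 0.09, PGD of the pentose phosphate pathway 0.02 ± 0.05 and SLC7A11, the cystine importer, 0.05 ± 0.09. Without high 2 these were 0.06 ± 0.08, 0.01 ± 0.06 and 0.16 ± 0.09.

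The core of the antioxidant response element, TGACNNNGC on either strand, was searched in the RefSeq start windows. It occurs in 13.6% of all 27305 windows. Of the 28 tested NRF2 targets 19 had a window, and 5 of these held it (26.3%): GCLM, TXNRD1, PGD, ME1 and PIR. Of the 38 called genes 26 had a window, and 2 held it (7.69%), COLCA1 and LINC00261, both lower at the high dose. GCLM is shown because its element is known to bind NRF2, at chr1:93909381-93909680 on the minus strand, with the core in capitals.
GCLM: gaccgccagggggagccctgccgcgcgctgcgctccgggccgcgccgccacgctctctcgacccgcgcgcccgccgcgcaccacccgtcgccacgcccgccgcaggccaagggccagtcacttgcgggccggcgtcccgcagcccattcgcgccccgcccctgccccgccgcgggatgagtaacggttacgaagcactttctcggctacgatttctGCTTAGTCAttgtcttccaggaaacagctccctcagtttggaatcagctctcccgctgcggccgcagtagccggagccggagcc
The AKR1C1, AKR1C2 and AKR1C3 windows do not hold these letters, and ALDH3A1 and AKR1B10 were not analysed here. PGD and GCLM, both with the core, had log2 fold changes of 0.02 and 0.30.

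The other 10 genes that were higher with all libraries have varied roles. PI3 encodes elafin, an inhibitor of neutrophil elastase made by epithelia, and had 20.0, 33.4 and 19.6 CPM in high, against 16.9, 12.5 and 15.9 CPM in low libraries. The groups did not overlap, with a log2 fold change of 0.67 ± 0.14 (edgeR adjusted p = 0.0185) and 0.38 ± 0.12 without high 2 (edgeR adjusted p = 0.858). SRM, the spermidine synthase of polyamine production, had a log2 fold change of 0.37 ± 0.08. EIF4EBP1, the repressor of cap-dependent translation, had 0.54 ± 0.12, and the mesotrypsin gene PRSS3 had 0.47 ± 0.11. Their values without high 2 were 0.22 ± 0.08, 0.33 ± 0.12 and 0.24 ± 0.10. COTL1, an actin-binding protein, had 138.9, 152.8 and 133.2 CPM in high and 120.5, 107.3 and 114.1 CPM in low libraries. It was among the more even rises, at 0.31 ± 0.07 (edgeR adjusted p = 0.0359) and 0.25 ± 0.07 without high 2 (edgeR adjusted p = 0.593). The tubulin TUBA4A (0.32 ± 0.07), the mitochondrial import pore TOMM40 (0.29 ± 0.07), the deacylase SIRT7 (0.34 ± 0.07) and DTD2 (0.43 ± 0.10), a proofreading enzyme of tRNA charging, were also higher. Without high 2 their values were 0.20 ± 0.07, 0.20 ± 0.07, 0.23 ± 0.06 and 0.33 ± 0.11.

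The 23 genes that were lower at the high dose also have varied roles. SLC6A20, a proline transporter of the apical membrane, had 8.09, 9.68 and 10.9 CPM in high 1, 2 and 3, against 14.2, 14.6 and 13.2 CPM in low 1, 2 and 3. High 2 lay between its replicates here, and no high library reached a low one. The log2 fold change was -0.54 ± 0.10 (edgeR adjusted p = 0.012), -0.54 ± 0.12 without high 2 (edgeR adjusted p = 0.159) and -0.69 ± 0.10 with library weights (limma adjusted p = 0.00333). ACSS2, which makes cytosolic acetyl-CoA from acetate, had 18.6, 20.7 and 17.8 CPM in high, against 22.8, 23.1 and 25.8 CPM in low libraries. Its log2 fold change was larger without high 2, at -0.40 ± 0.08 (edgeR adjusted p = 0.159), than with it, at -0.33 ± 0.08 (edgeR adjusted p = 0.0425). SPRY3, a Sprouty protein that restrains receptor tyrosine kinase signalling, had 6.34, 4.34 and 6.94 CPM in high and 9.55, 9.78 and 9.03 CPM in low libraries. The groups were apart, with -0.68 ± 0.12 (edgeR adjusted p = 0.00441) and -0.50 ± 0.11 without high 2 (edgeR adjusted p = 0.159).

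SYTL2, an effector of Rab27 in vesicle exocytosis, fell to 28.01, 17.3 and 31.4 CPM in the high libraries, against 38.1, 39.0 and 37.8 CPM in the low ones, which were nearly equal. Its log2 fold change was -0.58 ± 0.11 (edgeR adjusted p = 0.0112) and -0.36 ± 0.09 without high 2 (edgeR adjusted p = 0.261). The membrane mucin MUC13 had 129.8, 97.5 and 121.7 CPM in high, against 146.9, 136.2 and 141.0 CPM in low libraries, at -0.28 ± 0.07 (edgeR adjusted p = 0.0425) and -0.17 ± 0.06 without high 2 (edgeR adjusted p = 0.95). MUC13 was the 1 member of 20 tested goblet and mucin genes that passed, and 0 of 20 brush border genes and 0 of 20 tight junction genes passed by edgeR. TGFBI, a secreted matrix protein induced by TGF-beta, was the 1 of 19 YAP and TGF-beta targets that passed, at -0.28 ± 0.06 and -0.23 ± 0.07 without high 2. AMOT, the angiomotin that binds YAP, had 2.33, 1.95 and 2.97 CPM in high, against 4.13, 4.10 and 4.10 CPM in low libraries. Its log2 fold change was -0.75 ± 0.14 (edgeR adjusted p = 0.0161) and -0.62 ± 0.15 without high 2 (edgeR adjusted p = 0.563). DNAH7, a dynein of cilia, had the largest change at -1.09 ± 0.25, or -0.87 ± 0.27 without high 2. It had only 1.42, 0.692 and 1.10 CPM in high and 2.36, 2.61 and 1.95 CPM in low libraries.

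The remaining lower genes included FAM131B, CHST3 (a chondroitin sulfotransferase), ZNF704, PPP2R3A (a regulatory subunit of protein phosphatase 2A), STEAP4 (a metalloreductase), REPS2, B3GNTL1, RNF19A, TRIM5 (a restriction factor of retroviruses), PAM (which amidates peptides), and the non-coding COLCA1, GATA2-AS1, LINC00261 and an unnamed RNA. FAM131B had 9.12, 8.93 and 11.8 CPM in high and 13.6, 14.8 and 15.1 CPM in low libraries, at -0.53 ± 0.10 (edgeR adjusted p = 0.0112) and -0.46 ± 0.11 without high 2 (edgeR adjusted p = 0.208). COLCA1 and GATA2-AS1 lie antisense to other genes, and whether counting used the strand is not given in the sources used here. The lower genes were long, with a median exon length of 7810 bases, against 3610 in the higher genes and 4267 over all tested genes. Across 16379 genes the log2 fold change and exon length had a rank correlation of -0.34 with all libraries and -0.09 without high 2, and for the dose effect of Yijung-tang it was -0.24. With an exon length offset edgeR called 24 genes, 11 higher and 13 lower, 19 of them among the 38 (0.146% of tested genes called).

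Interferon-stimulated genes, which code for antiviral effectors, leaned the other way without any passing. Of 36 tested, 0 were called by edgeR, and the smallest adjusted p was 0.116. The median log2 fold change was -0.23 with all libraries, -0.21 without high 2 and -0.26 with the exon length offset. All high libraries lay below all low ones in 13 of 36 genes, against 6.43% of all tested genes, and in 18 of 36 without high 2, against 9.82%. With all libraries 26 of the 36 had a log2 fold change below 0 and 10 above it. Without high 2, all 36 had a log2 fold change of 0 or below, with the value nearest 0 in BST2 (-0.00 ± 0.14). The list's median log2 ratio to the low mean was -0.23, -0.27 and -0.15 in high 1, 2 and 3, against -0.03, -0.01 and 0.02 in low 1, 2 and 3. The median of high 2 hides members far from its replicates in both directions: ISG15 had 24.97, 51.56 and 27.81 CPM in high 1, 2 and 3, and OAS3 had 149.4, 81.43 and 169.3 CPM. OAS1, which makes 2-5A to activate RNase L, had 38.5, 35.6 and 37.3 CPM in high and 44.5, 47.0 and 46.1 CPM in low libraries. Its groups did not overlap, and the log2 fold change was -0.30 ± 0.11 with high 2 and -0.28 ± 0.12 without it. PARP9, a partner of DTX3L, had -0.38 ± 0.11 and -0.22 ± 0.11 without high 2, and the helicase DDX60 -0.48 ± 0.15 and -0.34 ± 0.16. SAMD9 lost most of its size without high 2, at -0.38 ± 0.13 and -0.15 ± 0.11. In medium 1, 2 and 3 the list medians were 0.02, -0.06 and -0.03.

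**Figure D3:**
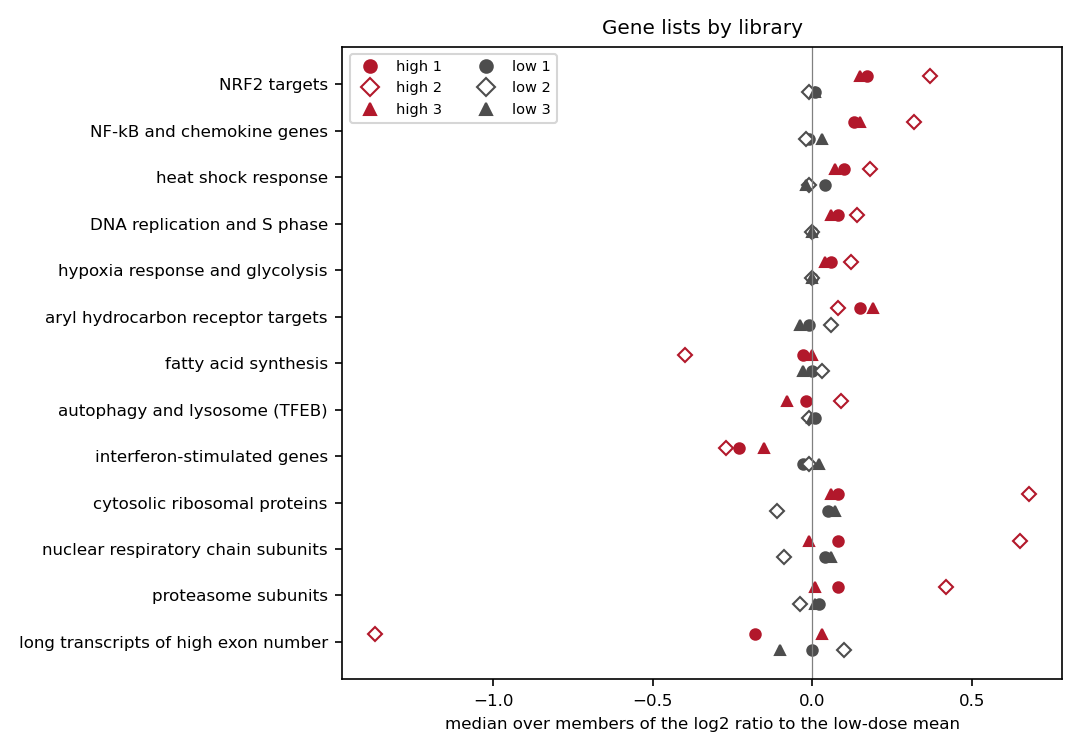
Median over list members of the log2 ratio of CPM to the mean of the 3 low libraries, for each high (red) and low (grey) library; open diamonds are replicate 2. NRF2 targets lie above 0 in all 3 high libraries (0.17, 0.37 and 0.15 in high 1, 2 and 3). Interferon-stimulated genes lie below it (-0.23, -0.27 and -0.15). Some other lists also keep their sign in all 3, such as NF-kB and chemokine genes (0.13, 0.32 and 0.15) and ribosomal proteins (0.08, 0.68 and 0.06). Ribosomal proteins and long transcripts (-0.18, -1.37 and 0.03) lie much farther from 0 in high 2 than in its replicates.

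Targets of the aryl hydrocarbon receptor gave 0 calls among 9 tested. CYP1A1 had 1.16, 0.566 and 0.991 CPM in high, against 0.295, 0.559 and 0.139 CPM in low libraries, all low levels. The lowest high library was barely above the highest low one, with a log2 fold change of 1.54 ± 0.58 (edgeR adjusted p = 0.157) and 1.77 ± 0.61 without high 2 (edgeR adjusted p = 0.948). CYP1B1 had 68.5, 57.1 and 65.0 CPM in high and 53.1, 58.3 and 49.8 CPM in low libraries. High 2 overlapped the low group, and the log2 fold change was 0.24 ± 0.10 (edgeR adjusted p = 0.17), or 0.31 ± 0.10 without high 2 (edgeR adjusted p = 0.858). ALDH1A3, which makes retinoic acid, had 0.23 ± 0.08, and EREG, an EGF receptor ligand, 0.15 ± 0.07. Without high 2 these were 0.24 ± 0.09 and 0.18 ± 0.07. TIPARP, a feedback repressor of the receptor, was above all low libraries in high 1 and high 3 but not in high 2.

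The NF-kB and chemokine list gave 0 calls among 19 tested, with a median of 0.16, or 0.12 without high 2. CXCL1, a neutrophil attractant, had 33.4, 44.0 and 36.0 CPM in high, against 28.5, 27.6 and 28.97 CPM in low libraries. The groups were apart but the log2 fold change of 0.41 ± 0.11 did not pass (edgeR adjusted p = 0.0916) and was 0.29 ± 0.11 without high 2. These low libraries of Banhasasim-tang lay above those of Yijung-tang low, with 1.58, 1.33 and 1.78 CPM, and of vehicle, with 2.03, 1.498 and 1.54 CPM. CCL20, which draws CCR6-bearing lymphocytes, had 7.76, 10.6 and 7.57 CPM in high and 5.78, 3.08 and 5.98 CPM in low libraries of Banhasasim-tang. Its log2 fold change was 0.78 ± 0.24 (edgeR adjusted p = 0.116), and 0.60 ± 0.25 without high 2. In Yijung-tang low CCL20 had 0.477, 0.196 and 0.155 CPM, and in vehicle 0.226, 0.375 and 0.499 CPM. PI3 followed the same order of groups, with 3.77, 3.98 and 3.49 CPM in Yijung-tang low and 4.69, 3.43 and 3.58 CPM in vehicle. Between the low dose of Banhasasim-tang and these groups no test was made.

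Other lists held 0 or 1 gene that passed. Heat shock genes (19 tested) had a median of 0.12, and 0.09 without high 2. Their smallest adjusted p was in the cochaperone FKBP4 at 0.23 ± 0.06 (edgeR adjusted p = 0.0709), or 0.16 ± 0.06 without high 2. In 7 of 19 all high libraries lay above all low ones, against 7.19% of all tested genes, and in 9 without high 2, against 11%. DNA replication genes (38 tested, median 0.08 and 0.06 without high 2) had 8 such genes, 14 without high 2. RRM2 had 0.17 ± 0.05 (0.13 ± 0.05 without high 2) and MCM7 had 0.14 ± 0.05 (0.1 ± 0.05 without high 2). Hypoxia and glycolysis genes (32 tested, median 0.07 and 0.05) had 11 genes with all high libraries above all low ones, 14 without high 2. LDHA had 0.19 ± 0.06 (0.1 ± 0.07 without high 2) and ALDOA had 0.21 ± 0.07 (0.08 ± 0.07 without high 2). The 29 tested autophagy and lysosome genes had a median of 0.01 (-0.05 without high 2), 15 of them above 0. In 8 all high libraries lay below all low ones and in 2 above, against 6.43% and 7.19% of all tested genes, and without high 2 in 10 below, against 9.82%, and 2 above. Among the 8 was the folliculin partner FNIP1 (-0.32 ± 0.09, and -0.2 ± 0.09 without high 2). In fatty acid synthesis ACSS2 alone passed among 13 tested. SCD, the stearoyl-CoA desaturase, had 1768, 1149 and 1758 CPM in high and 1984, 1991 and 1792 CPM in low libraries, at -0.30 ± 0.09 and -0.13 ± 0.08 without high 2. Ribosomal proteins (median 0.30), respiratory chain subunits (0.27), proteasome subunits (0.17) and long transcripts (-0.38) had far smaller medians without high 2, at 0.07, 0.05, 0.04 and -0.08. Targets of the integrated stress response (0.02), p53 targets (-0.04), cholesterol synthesis (-0.04) and mitosis genes (0.00) had medians near that of all tested genes.

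**Figure D4:**
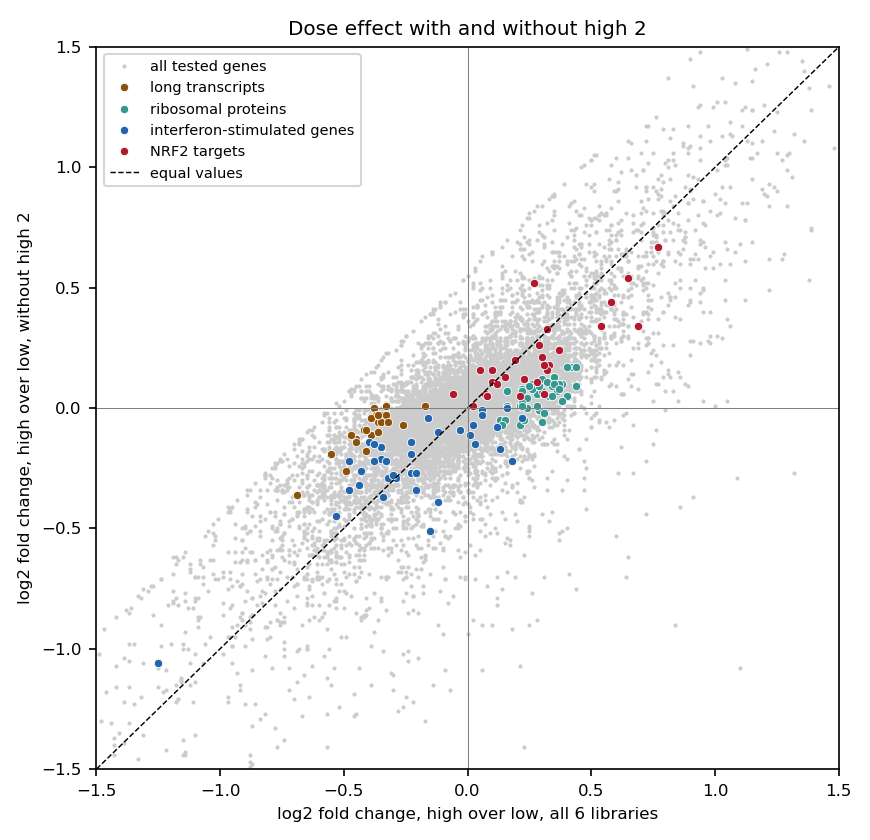
Log2 fold change of high over low dose for the tested genes, with all 6 libraries (horizontal) and without high 2 (vertical); 208 genes lie outside the drawn range. NRF2 targets stay above 0 on the vertical axis and interferon-stimulated genes at or below 0, while ribosomal proteins (median 0.30 with high 2 and 0.07 without) and long transcripts (-0.38 and -0.08) move to near 0.

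The medium dose splits the comparison into an upper and a lower step. Between high and medium dose edgeR called 3 genes (0.0182% of 16484): ALDH3A1 at 0.47 ± 0.09 (adjusted p = 0.0218), AKR1B10 at 0.49 ± 0.09 (edgeR adjusted p = 0.0218) and FAM131B at -0.50 ± 0.10 (edgeR adjusted p = 0.0326). Without high 2, or without any single medium library, 0 genes passed, and without high 1 or high 3 the counts were 18 and 1751. Between medium and low dose edgeR called 0 genes, with 355 at an unadjusted p under 0.05 (2.15%), and DESeq2 called 1. In all 38 genes called between high and low dose the medium mean lay between the low and the high mean. Choosing genes by a difference between high and low dose favours this order, and its share over all tested genes was not computed. AKR1C2 had a log2 fold change of 0.52 ± 0.13 for high against medium dose and 0.24 ± 0.14 for medium against low dose. For medium against low dose ALDH3A1 had 0.12 ± 0.09 and AKR1B10 had 0.05 ± 0.09. PI3 had 0.27 ± 0.13 for the upper step and 0.40 ± 0.14 for the lower. Whether both steps differ was not tested.

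Yijung-tang, which shares ginger, ginseng and licorice with Banhasasim-tang, was compared between its own 3 high and 3 low libraries of the same set, in the same fit of 57 libraries. Between its high and low dose 17 genes passed (0.103%), 14 higher (0.0849%) and 3 lower (0.0182%), with 959 (5.82%) at an unadjusted p under 0.05. Of the 38 genes of Banhasasim-tang 33 had the same sign in Yijung-tang and 5 passed there too, among them AKR1C2, AKR1B10, ALDH3A1 and TUBA4A. The share of all tested genes with the same sign in both formulas was not computed. Dose effects of both formulas fell with exon length, and its part in the shared signs was not tested. Those 5 are 13.2% of the 38 and 29.4% of the 17. AKR1C2 had 17.5, 17.2 and 17.1 CPM at high dose of Yijung-tang, against 10.7, 10.0 and 9.31 CPM at its low dose. The log2 fold change was 0.78 ± 0.13, and the difference from Banhasasim-tang was -0.01 ± 0.19 (edgeR adjusted p = 0.994). The beta-tubulin TUBB rose in Yijung-tang (0.34 ± 0.05, edgeR adjusted p = 0.000102) and had 0.08 ± 0.05 in Banhasasim-tang, a difference of -0.26 ± 0.07 (edgeR adjusted p = 0.469). UGT1A6, a glucuronidation enzyme, had 0.05 ± 0.09 in Banhasasim-tang and 0.51 ± 0.09 in Yijung-tang, a difference of -0.46 ± 0.13 (edgeR adjusted p = 0.514). TUBB and UGT1A6 are among the 17 genes that passed in Yijung-tang, a choice that favours larger values in that formula. Over all genes, the difference between the dose effects of both formulas passed in 0 genes by edgeR, with 1062 at an unadjusted p under 0.05 (6.44%), and in 3 by DESeq2. Without high 2 it passed in 0 genes by edgeR, with 612 at an unadjusted p under 0.05. Medians of the NRF2 list (0.27 in Banhasasim-tang and 0.17 in Yijung-tang) and the interferon list (-0.23 and -0.15) had the same sign in both formulas. Without high 2 the medians in Banhasasim-tang were 0.16 for the NRF2 list and -0.21 for the interferon list. In bulk RNA, fewer cells of a kind and less RNA per cell cannot be told apart.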

How the data were processed

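The authors deposited 1 table of RSEM expected counts (estimated counts per gene), with 60675 genes, 270 columns and no normalization that the values show. By their names 60 columns belong to samples described here, and 210 were not used. The submitters' processing notes name STAR 2.7.3a, RSEM 1.3.3, FastQC 0.11.9 and Trim Galore 0.6.5, and the build GRCh38 (hg38). RSEM shares reads between near-identical genes, so copies such as AKR1C1 and AKR1C2 are less certain. Per the labels' protocols a directional kit was used, but neither the strand setting of counting nor the annotation is given in the sources used here. Lines that name no gene numbered 0. A gene name table gave symbols (56558 identifiers matched). Coordinates and exon lengths are from GENCODE 29 (57055 matched) and start windows from RefSeq (GRCh38.p14).

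Counts were rounded (8.68% were not whole), filtered with filterByExpr by group, scaled by TMM and fitted with edgeR 4.0.16 (R 4.3.3) as a quasi-likelihood model of group means over 57 libraries in 19 groups. Bojungikgi-tang, with 1 library per dose, was left out. The biological coefficient of variation was 8%. P-values were Benjamini-Hochberg adjusted over 16484 genes in each comparison, with 0.05 as the threshold. Errors of log2 fold changes are standard errors, approximated as the absolute log2 fold change over the square root of F, and low counts make them less certain. CPM are on TMM-scaled totals, except summed marker levels, which are on unscaled totals. Totals of 10.35 to 24.48 M counts in the Banhasasim-tang libraries set the counting precision. Chi-square values per degree of freedom compare counts of 2 libraries over genes. No pair of replicates agreed within sampling noise.

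Alternatives were DESeq2 1.42.0, limma 3.58.1 with library weights, other scaling, no filter, an exon length offset (lowess span 0.3), fewer libraries, a replicate block and leaving out each library. Whether replicate numbers pair the libraries was checked by correlating same-numbered libraries' deviations from their group means. The correlation was -0.03, -0.42 and -0.32 for high with low dose and 0.01, -0.10 and 0.04 for high with medium dose. For medium with low dose it was 0.35, 0.11 and 0.21, which is weak, so whether those numbers pair the libraries is uncertain. The main fit used no block, and adding it changed no call between medium and low dose. The main fit was also tried on simulated counts. The outcome of that trial is not given here. It cannot speak for the other fits or for a library that stands apart from its replicates, and no result rests on it.

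Genes were to be named by these rules: up to 12 rises and 12 falls called with and without high 2, with mean log2 CPM of at least 1 and groups that do not overlap; the 5 largest called only with high 2; the 5 largest called only without it; up to 4 members of each list with the smallest adjusted p; the 5 largest in each direction for each dose step and for the difference between formulas; and CYP1A1, CYP1B1, HMOX1 and NQO1. The first rule named 0 genes. AKR1C2, AMOT, AKR1C3, SPRY3 and PI3 came from the second, and other genes were chosen after their values were seen. Results of a few genes are not reported here. The comparison, the members and the gene lists were chosen with earlier results of these data known.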

Additional observations from a re-analysis of the deposited data

How the results depend on the processing

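The 38 calls between high and low dose changed with several settings. They became 1472 with no filter on low counts, 195 with DESeq2, 24 with the exon length offset, 14 with library weights, 1 with the libraries of set 7 only and 0 with the compared groups only. With other size factors (RLE) they were 43. Leaving out each library gave between 0 (high 2) and 2990 (high 3), with 831 without high 1 and 11, 1 and 12 without low 1, 2 and 3. Fits chosen after seeing the data, all without high 2, gave 3 in set 7, 3 in set 7 with the exon length offset and 0 with the compared groups only. The 3 calls between high and medium dose became 695 with no filter, 10 with library weights, 6 with DESeq2, 0 in set 7 only, 0 with the compared groups only and 0 in set 7 without high 2. Leaving out each library gave 0 to 1751. The 0 calls between medium and low dose became 48 with no filter, 3 with the compared groups only and 1 with DESeq2. For the difference from Yijung-tang the 0 calls became 169 with no filter and 3 with DESeq2, and 0 to 4 when each library was left out. The cause was not tested.

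With the replicate block high against low dose gave 53 calls, 36 of them among the 38, and the other comparisons gave 3, 0 and 0. Libraries of high and low dose with the same number did not deviate together. No called value changed its sign in these alternatives. Of 17 alternatives AKR1C2 and ALDH3A1 passed in 13 each, AKR1B10 in 11 and SYTL2 in 10.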

Other observations

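Among lists not described so far, small structured RNAs, which have no poly(A) tail or a short one, had a median log2 fold change of 0.78 over 5 tested members, 0.69 without high 2, with 0 called by edgeR. RN7SL2, an RNA of the signal recognition particle, had 96.5, 127.9 and 126.6 CPM in high 1, 2 and 3, against 82.4, 71.5 and 53.5 CPM in low 1, 2 and 3. All high libraries lay above all low ones, as in 7.19% of all tested genes. Its log2 fold change was 0.76 ± 1.03 (edgeR adjusted p = 0.699), an error larger than the change, and RN7SL1 had 0.85 ± 0.86. In medium 1, 2 and 3 RN7SL2 had 119.5, 100.5 and 82.16 CPM. The mRNAs of the mitochondrial genome had a median log2 ratio to the low mean of 0.25, 0.02 and -0.10 in high 1, 2 and 3, with no shared direction. Metallothioneins and related genes had medians of 0.19 with all libraries and 0.02 without high 2.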
